A study of Mus musculus with 12 samples.

Results

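The Mir-99, Mir-100 and Mir-125 members of the Mir-10 family were followed through 12 small RNA libraries of mouse hippocampus. They were taken as the rows whose name begins with Mir-10-P2 (the Mir-99 and Mir-100 paralogues) or Mir-10-P3 (the Mir-125 paralogues), which gave 11 of the 513 rows, 5 of them 5p arms and 6 of them 3p arms. All mice were wild-type C57BL/6J males. Each library came from 1 numbered mouse. The exercised lineage held 6 F2 mice whose grandfathers had exercised, and the sedentary lineage held 6 F2 mice of sedentary grandfathers. The design ran through the male line, and both lineages share strain, genotype, sex and tissue. The labels mention exercise for the founder generation and state neither the kind of exercise nor the age of the F2 mice. The question was whether the hippocampal miRNA profile of grandsons differs with the exercise of the grandfather.

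The Mir-10 family is an old animal miRNA family. A miRNA hairpin is cut into a 5p and a 3p arm, of which the arm that stays in the Argonaute complex is called the guide and the other the passenger. The guide pairs with target mRNAs mainly through its seed, bases 2 to 8, and represses them. Mir-125 is the vertebrate relative of lin-4, the miRNA that times larval development in the worm Caenorhabditis elegans, and Mir-99 and Mir-100 lie beside let-7 and Mir-125 genes in shared clusters. In mouse neurons miR-125a represses the mRNA of PSD-95, a scaffold protein of excitatory synapses, and miR-125b acts on the form of dendritic spines. In human cells miR-99 and miR-100 repress MTOR, a kinase that controls growth.

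The guide sequences are shown because shared seeds sort the members into groups and because few bases separate the members of a group. Capitals mark the seed, bases are 5′ to 3′, and the sequences are those of RefSeq on GRCm38.p6, where all 6 loci were found. The 3 guides of the Mir-10-P2 rows have the seed ACCCGUA:
miR-99a-5p: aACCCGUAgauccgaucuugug
miR-99b-5p: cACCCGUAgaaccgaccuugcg
miR-100-5p: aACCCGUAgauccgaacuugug
The guides of the Mir-10-P3 rows have the seed CCCUGAG, which miR-351-5p of the Mir-351 gene also has:
miR-125a-5p: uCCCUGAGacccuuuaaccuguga
miR-125b-5p: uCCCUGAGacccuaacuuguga
miR-351-5p: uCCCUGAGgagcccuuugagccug

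Counted from 1 at the 5′ end, miR-100-5p differs from miR-99a-5p only by A16U, and from miR-99b-5p by A1C, U11A, A16C and U21C. The guides miR-125a-5p (24 bases) and miR-125b-5p (22 bases) share their first 13 bases, and miR-125b-5p and miR-351-5p share the first 8. In contrast to the guides, the 6 passenger sequences carry 5 different seeds, since only miR-99a-3p and miR-99b-3p have the same one. The passengers of the miR-125b hairpins are shown because they are the sole way to tell these loci apart:
miR-125b-1-3p: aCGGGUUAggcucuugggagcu
miR-125b-2-3p: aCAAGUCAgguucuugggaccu
They differ by G3A, G4A, U7C, C11U and G20C.

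The rows are named by paralogue letter and not by miRBase number. Mir-10-P3b and Mir-10-P3c share 1 row for their 5p arm, and the only Mir-125 loci with an identical 5p arm are those of miR-125b, which makes Mir-10-P3a miR-125a. Which of Mir-10-P2a, P2b and P2c is miR-99a, miR-99b or miR-100, and which of Mir-10-P3b and P3c is miR-125b-1 or miR-125b-2, cannot be read from the sources used here. The letters are kept for these rows.

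The 6 genes form 3 clusters on the plus strand of mm10, each a Mir-99 or Mir-100 gene followed by a let-7 gene and a Mir-125 gene. On chromosome 9, Mir100 (chr9:41531425-41531504) and Mir125b-1 (chr9:41581926-41582002) lie 50.4 kb apart in introns of the noncoding gene 3110039I08Rik, with Mirlet7a-2 between them, and Mir125b-1 also overlaps an exon of Gm28119. On chromosome 16, Mir99a (chr16:77598936-77599000) and Mir125b-2 (chr16:77646273-77646343) lie 47.3 kb apart in introns of the noncoding gene Mir99ahg, with Mirlet7c-1 between them. On chromosome 17, 554 bases separate Mir99b (chr17:17830188-17830257), which is in an intron of the protein-coding gene Spaca6, and Mir125a (chr17:17830812-17830879), which overlaps an exon of a Spaca6 transcript. Mirlet7e lies between them.

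Library depth was 6862623 to 10219856 reads. Levels are given as normalized counts, that is, reads after division by a size factor of the library, and no member was listed at 0 in any library. The 14 arm rows of neuronal miRNAs held 12.2% of all counts, as the tissue label implies. The miRNA rows of choroid plexus summed to 30190 to 163753 normalized counts in exercised-lineage mice and 28976 to 164782 in sedentary-lineage mice. The library of exercised mouse 1 stood apart: its normalized counts summed to 6458450, the lowest of the 12, and across the 121 hairpins that are not members its median guide-to-passenger ratio was 0.24 log2 units below their means over libraries, against -0.08 to 0.08 in the other libraries. The submitters' sample codes begin with R31 or R41 in exercised-lineage mice and with S11 or S41 in sedentary-lineage mice, 3 libraries each. The labels leave these codes unexplained. Code set and lineage cannot be told apart, since each set lies within 1 lineage, and libraries of a set may not be independent.

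Together the 11 rows made up 7.71% ± 0.448 of all normalized counts in exercised-lineage mice and 8.13% ± 0.433 in sedentary-lineage mice (SD, n = 6 each). The 5p arms held nearly all of this, with 7.58% ± 0.442 in exercised-lineage mice and 8.02% ± 0.437 in sedentary-lineage mice. The 3p arms held 0.121% ± 0.0251 in exercised-lineage mice and 0.109% ± 0.00965 in sedentary-lineage mice. Exercised mouse 1 had the highest 3p share, 0.165%. Its 5p share was 7.61%, within the range of 7.05% to 8.25% of the exercised lineage. In whole hippocampus, fewer cells of a type and less RNA per cell cannot be told apart. Levels of different miRNAs are compared here as read numbers of arms of similar length, and ligation during library making favours some ends over others, so the order of levels is an order of reads.

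Mir-10-P2b_5p was the most abundant member and ranked 5th of the 513 rows. It had a lowest, median and highest value of 274833, 338074 and 386120 normalized counts in the exercised lineage, against 342770, 352955 and 446598 in the sedentary lineage. Mouse 1 of the exercised lineage was lowest and mouse 3 of the sedentary lineage highest, and the lineages overlapped. Mir-10-P2a_5p, which has the same seed, ranked 14th. Its lowest, median and highest values were 116753, 159924 and 182201 in the exercised lineage, against 147181, 172392 and 209601 in the sedentary lineage. The same libraries stood at the ends as for Mir-10-P2b_5p. Mir-10-P2c_5p, the least abundant guide with this seed, ranked 30th. It had 35249, 49603 and 57999.5 as its lowest, median and highest values in the exercised lineage, against 45933, 57471 and 73218 in the sedentary lineage. Of the 6 exercised-lineage values, 5 lay below the sedentary median, and the lineages overlapped.

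The shared miR-125b guide row, Mir-10-P3b_5p/P3c_5p, ranked 25th. Its lowest, median and highest values were 59802, 73723 and 78308 normalized counts in the exercised lineage, against 70695, 74555 and 81029 in the sedentary lineage. The medians lay close together, and exercised mouse 1 was again lowest. Mir-10-P3a_5p, the miR-125a guide, ranked 73rd. It had 4733, 8250.5 and 9146 as its lowest, median and highest values in the exercised lineage, against 6897, 9299 and 12122 in the sedentary lineage. All 6 exercised-lineage values were below the sedentary median, yet the ranges overlapped widely. The share of all tested rows with all 6 values on 1 side of that median was not counted.

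Among the passenger arms, the miR-125b passenger Mir-10-P3c_3p* was by far the most abundant and ranked 81st. It had 6203, 6507 and 7811 normalized counts as its lowest, median and highest values in the exercised lineage, against 5565, 6217 and 7108 in the sedentary lineage. Of the exercised-lineage values, 5 of 6 lay above the sedentary median, while 4 of 6 values of the shared miR-125b guide row lay below the sedentary median of that row. Mir-10-P2c_3p* ranked 132nd. Its lowest, median and highest values were 1623, 1777 and 1819.9 in the exercised lineage, against 1681, 1863 and 2380.5 in the sedentary lineage. All 6 exercised-lineage values were below the sedentary median, a pattern whose share among all tested rows was not counted. Mir-10-P3b_3p*, the passenger of the other miR-125b hairpin, ranked 171st with a mean of 925.9 ± 89.8 in exercised-lineage mice and 945.6 ± 57.7 in sedentary-lineage mice (SD, n = 6 each).

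The remaining passengers were scarce. Mir-10-P3a_3p* averaged 93.1 ± 26.6 normalized counts in exercised-lineage mice and 96.1 ± 18.3 in sedentary-lineage mice (SD, n = 6 each). Mir-10-P2b_3p* averaged 66.6 ± 10.1 in exercised-lineage mice and 60.8 ± 7.41 in sedentary-lineage mice. Mir-10-P2a_3p*, the lowest member, averaged 28.1 ± 8.06 in exercised-lineage mice and 24.2 ± 1.83 in sedentary-lineage mice, from 16 to 42 reads a library. Although Mir-10-P2a and Mir-10-P2b gave the most abundant guides, their passengers were the least abundant of the 6.

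**Figure D1:**
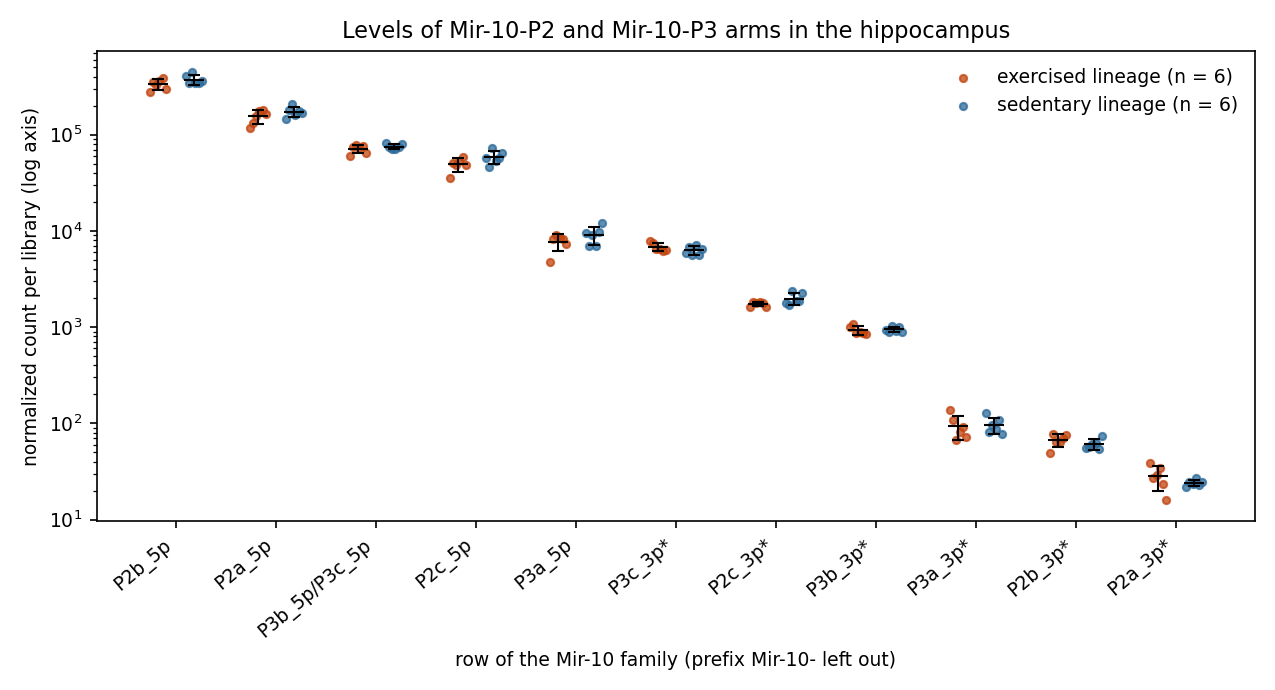
Normalized counts of the 11 rows on a log scale, with a point for each library, the exercised lineage left of the sedentary lineage (6 libraries each) and mean ± SD in black. No guide falls below 4733, the 3 scarcest passengers reach 137.9 at most, and the lineages overlap for every row. The share of all tested rows with such an overlap was not counted.

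The order of the guides was stable across libraries. Mir-10-P2b_5p exceeded Mir-10-P2a_5p in 12 of 12 libraries by 2.16-fold, and Mir-10-P2a_5p exceeded the miR-125b guide row in 12 of 12 by 2.22-fold. The miR-125b guide row exceeded Mir-10-P2c_5p in 11 of 12 libraries by 1.38-fold, so these neighbours changed places in 1 animal. Mir-10-P2c_5p exceeded the miR-125a guide in 12 of 12 by 6.48-fold. Next in the order, the miR-125a guide exceeded the passenger Mir-10-P3c_3p* in 10 of 12 libraries, with a mean log2 difference of 0.33 ± 0.45 (SD, n = 12), a gap within the spread between libraries. Mir-10-P3a_3p* and Mir-10-P2b_3p* were the other close neighbours, with the first higher in 11 of 12 libraries and by 1.46-fold.

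The members varied between animals of a lineage by different amounts. On the log2 scale, the within-lineage SD was 0.11 for Mir-10-P3b_3p*, 0.12 for the miR-125b guide row and 0.15 each for Mir-10-P3c_3p* and Mir-10-P2c_3p*, against a median of 0.29 over the 474 rows tested. Only 3.59% of rows varied less than Mir-10-P3b_3p* and 4.64% less than the miR-125b guide row. The miR-125a guide varied more, with an SD of 0.33. For the most abundant row, Mir-10-P2b_5p, the SD of 0.17 was 69.9 times the counting error of its reads, whereas for the scarce passengers Mir-10-P2b_3p* and Mir-10-P2a_3p* it was 1.11 and 1.13 times the counting error. For Mir-10-P2a_3p* the SD was 0.43 in exercised-lineage mice and 0.10 in sedentary-lineage mice, on either side of the counting error of 0.28. This contrast rests on 16 to 42 reads a library and was not tested.

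No member differed between the lineages past the threshold. In limma's test on log2(value + 1) with Benjamini-Hochberg adjustment over 474 rows, 0% of rows were called higher and 0% lower in the exercised lineage, and 0 of the 11 members were called. At an unadjusted p below 0.05 stood 34 rows (7.17%) and 0 members. With each library left out in turn these were 18 rows (without exercised mouse 6) to 48 rows (without sedentary mouse 4), and with upper-quartile scaling 57 rows, 52 higher and 5 lower. Mir-10-P2c_5p had an unadjusted p of 0.0415 without exercised mouse 5 and of 0.0264 without sedentary mouse 2, where Mir-10-P2c_3p* had 0.0430 (limma adjusted p of 0.424 to 0.522 in these cases). Without the R41 libraries Mir-10-P2a_5p and Mir-10-P2c_5p had 0.0216 and 0.0356 (limma adjusted p = 0.545 for both). The fold of a row is its log2 difference, exercised minus sedentary lineage, whereas values written as 1.5-fold are plain ratios. Members below 0 in fold numbered 8 of 11, with a median fold of -0.09, beside 50.2% of all rows and a median of -0.00. The guides were below 0 in 5 of 5 cases, with a median of -0.17, and the passengers in 3 of 6, with a median of 0.04. Scaling libraries to equal totals or by the upper quartile moved all rows upward together: 35.0% and 36.3% of all rows were then below 0, beside 5 and 6 of the 11 members and 4 and 5 of the 5 guides. With TMM scaling 8 of 11 members and 5 of 5 guides were below 0.

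Among the guides, Mir-10-P2c_5p had the fold farthest from 0, with -0.26 (SE 0.13, limma adjusted p = 0.532), and a 95% confidence interval of -0.54 to 0.03. Mir-10-P2b_5p and Mir-10-P2a_5p each had a fold of -0.17 (SE 0.10 and 0.12, limma adjusted p = 0.532 and 0.585). The miR-125a guide had -0.24 (SE 0.17, limma adjusted p = 0.607), and its interval of -0.61 to 0.14 leaves room for a lower level by more than 1.5-fold. The fold of the miR-125b guide row was -0.09 (SE 0.08, limma adjusted p = 0.669), and it was 0.00 with libraries scaled to equal totals. Exercised mouse 1 was the lowest library for all 5 guides in normalized counts, but not in the 5p share of all counts (7.61%). Without it the folds were -0.17 for Mir-10-P2c_5p, -0.11 for Mir-10-P2b_5p, -0.09 for Mir-10-P2a_5p, -0.10 for the miR-125a guide and -0.04 for the miR-125b guide row.

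Among the passengers, Mir-10-P2c_3p* had a fold of -0.17 (SE 0.10, limma adjusted p = 0.532); that of the guide from the same hairpin was -0.26. For the passenger Mir-10-P3c_3p* the fold was 0.12 (SE 0.09, limma adjusted p = 0.611), with an interval of -0.08 to 0.33. The passengers Mir-10-P2a_3p*, Mir-10-P2b_3p*, Mir-10-P3a_3p* and Mir-10-P3b_3p* had folds of -0.07 to 0.16 with limma adjusted p of 0.738 to 0.934. The 95% confidence interval reached beyond 1.5-fold from no difference for Mir-10-P2a_3p* and the miR-125a guide. For the other members both ends were nearer than that. The share of all tested rows with such intervals was not counted, so this is not shown to be particular to the members.

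**Figure D2:**
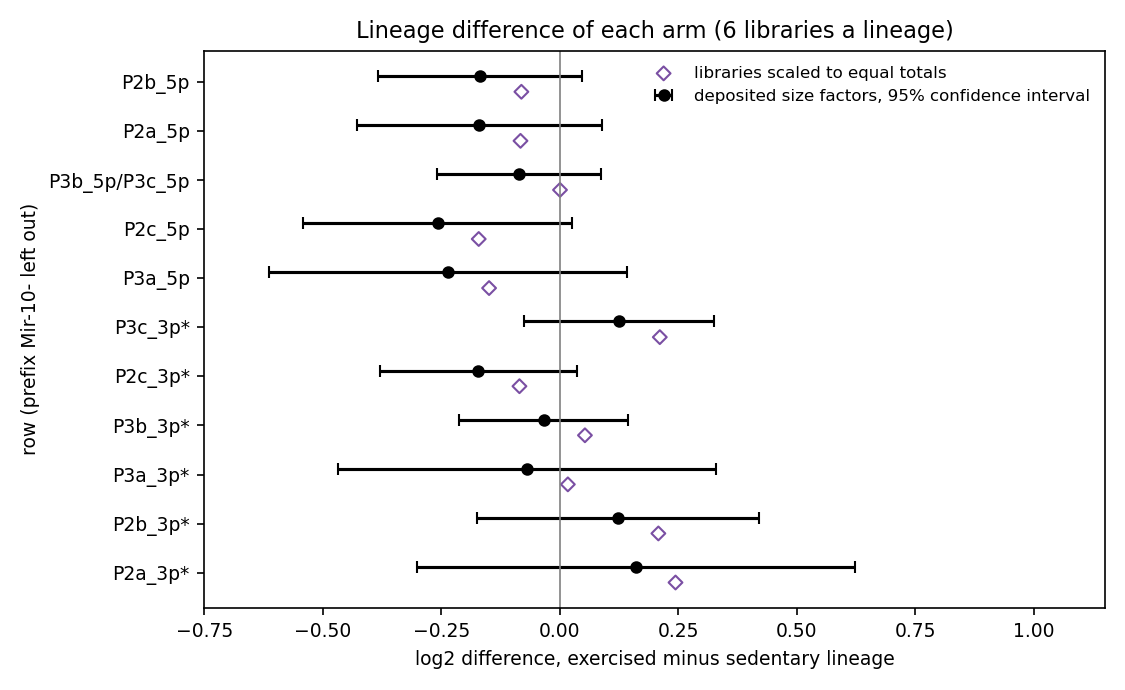
Log2 difference, exercised minus sedentary lineage, for each of the 11 rows, with 6 libraries a lineage. Filled points show the limma estimate with its 95% confidence interval and open diamonds the estimate after scaling libraries to equal totals. Every interval crosses 0, and the diamonds lie to the right of the points.

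Each pool of guides that share a seed gives the level of that seed among the members. RefSeq lists 3 mature miRNAs with the seed of Mir-99 and Mir-100, and all 3 are members. It lists 5 with the seed of Mir-125, of which 2 are members, so that pool does not cover all miRNAs that carry its seed. The Mir-10-P2 guides together made up 6.61% ± 0.396 of all counts in exercised-lineage mice and 7.04% ± 0.483 in sedentary-lineage mice (SD, n = 6 each). The Mir-10-P3 guides made up 0.973% ± 0.0841 in exercised-lineage mice and 0.982% ± 0.0542 in sedentary-lineage mice. The seed of Mir-99 and Mir-100 was thus 6.98 times as frequent as that of Mir-125 among the members' reads.

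Within the Mir-99 and Mir-100 pool, Mir-10-P2b_5p held 62.2% ± 2.48 in exercised-lineage mice and 61.7% ± 2.51 in sedentary-lineage mice. Mir-10-P2a_5p held 28.8% ± 2.35 in exercised-lineage mice and 28.6% ± 2.59 in sedentary-lineage mice. Mir-10-P2c_5p held 9.09% ± 0.449 in exercised-lineage mice and 9.64% ± 0.927 in sedentary-lineage mice. For Mir-10-P2a_5p and Mir-10-P2b_5p the lineages differed by less than the SD within either, while for Mir-10-P2c_5p the difference of -0.549 percentage points exceeded the SD of the exercised lineage but not that of the sedentary lineage. In the Mir-125 pool, miR-125a held 9.68% ± 1.17 in exercised-lineage mice and 10.7% ± 1.75 in sedentary-lineage mice, and the rest was miR-125b. With miR-351-5p, of a gene on the X chromosome, counted into the pool, it held 0.202% ± 0.0307 in exercised-lineage mice and 0.234% ± 0.0390 in sedentary-lineage mice.

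**Figure D3:**
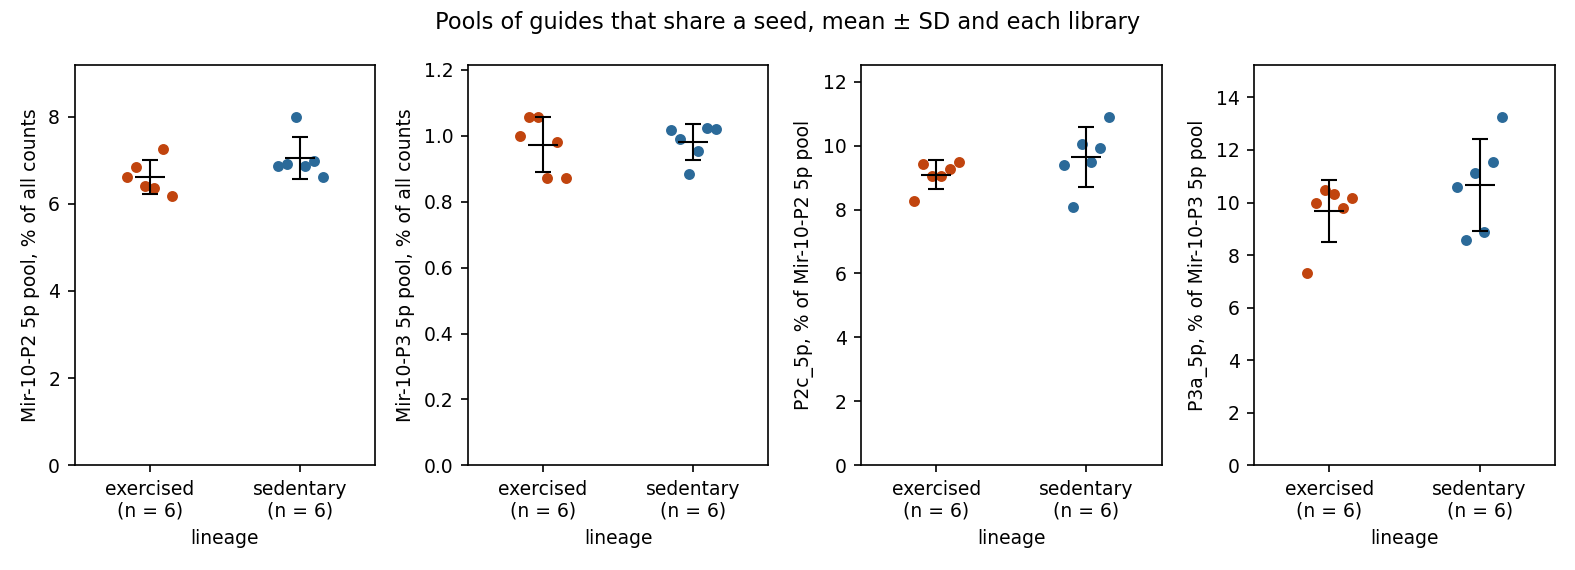
Share of the Mir-10-P2 and Mir-10-P3 guide pools in all normalized counts, and share of Mir-10-P2c_5p and Mir-10-P3a_5p in their own pool, in percent, with a point for each library and mean ± SD (6 libraries a lineage). The lineages overlap in all 4 panels, and exercised mouse 1 has the lowest miR-125a share, 7.33%.

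The preference for the guide arm differed widely between the hairpins. Mir-10-P2a and Mir-10-P2b gave guide-to-passenger ratios of 6119 and 5480, the 2nd and 3rd highest of the 125 hairpins with a guide and a passenger row of their own. Each ratio is the mean over libraries of the difference in log2(value + 1), turned back into a plain ratio. Mir-10-P3a (miR-125a) gave 87.6 and ranked 31st, and Mir-10-P2c gave 28.7 and ranked 53rd. Paralogues with 1 common guide seed thus spanned a wide range of arm ratios, and Mir-10-P2c was the closest of the 4 to the median of the hairpins, a log2 ratio of 4.04. For miR-125b the guide row is shared, so only the sum could be set against both passengers, which gave a ratio of 9.81.

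The miR-125b passengers came mostly from Mir-10-P3c, whose 3p row was 6.96 times that of Mir-10-P3b. Of the reads on both rows, Mir-10-P3c_3p* took 88.0% ± 0.368 in exercised-lineage mice and 86.7% ± 1.83 in sedentary-lineage mice (SD, n = 6 each). The exercised-lineage values kept to 87.6% to 88.6%. Sedentary mice 1, 3 and 5 stood lower, with 86.3%, 84.4% and 84.9%, while the other sedentary mice had 88.0% to 88.6%. This split was seen in the values and was not tested.

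The arm ratio was also compared between lineages, with limma on the log2 ratio of 5p to 3p over 139 paralogues that have a row for each arm. Of these, 0% were called and 12 (8.63%) had an unadjusted p below 0.05, among them 1 of the 4 members that could be tested. Mir-10-P2b had a log2 ratio of 12.27 ± 0.19 in exercised-lineage mice and 12.57 ± 0.23 in sedentary-lineage mice (SD, n = 6 each), a difference of -0.29 (SE 0.13, unadjusted p = 0.0372, limma adjusted p = 0.484). The count at an unadjusted p below 0.05 was 5 to 7 paralogues without sedentary mouse 1, sedentary mouse 3 or exercised mouse 6, and 20 to 22 without sedentary mouse 2 or 4. The unadjusted p of Mir-10-P2b ran from 0.0120 to 0.0873 with each library left out in turn and was above 0.05 in 6 of 12 cases. It was 0.350 without the S11 libraries, 0.0943 without R31, 0.0949 without R41 and 0.0140 without S41.

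The other members' arm ratios were lower in the mean of the exercised lineage too, none past the threshold. Mir-10-P2a had 12.41 ± 0.59 in exercised-lineage mice and 12.74 ± 0.20 in sedentary-lineage mice (limma adjusted p = 0.605). Mir-10-P2c had 4.80 ± 0.21 in exercised-lineage mice and 4.89 ± 0.09 in sedentary-lineage mice (limma adjusted p = 0.798), and Mir-10-P3a had 6.37 ± 0.69 in exercised-lineage mice and 6.54 ± 0.38 in sedentary-lineage mice (limma adjusted p = 0.904). A difference below 0 was found in 4 of 4 members and in 60.4% of all 139 paralogues. Exercised mouse 1 had the lowest ratio of all 12 libraries for Mir-10-P2a (11.52), Mir-10-P2c (4.44) and Mir-10-P3a (5.09), but not for Mir-10-P2b (12.42). Without it the difference was -0.15 for Mir-10-P2a, -0.01 for Mir-10-P2c and 0.09 for Mir-10-P3a. That library was the one with lower guide-to-passenger ratios across the other hairpins, and the part of this in the members' values was not tested.

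**Figure D4:**
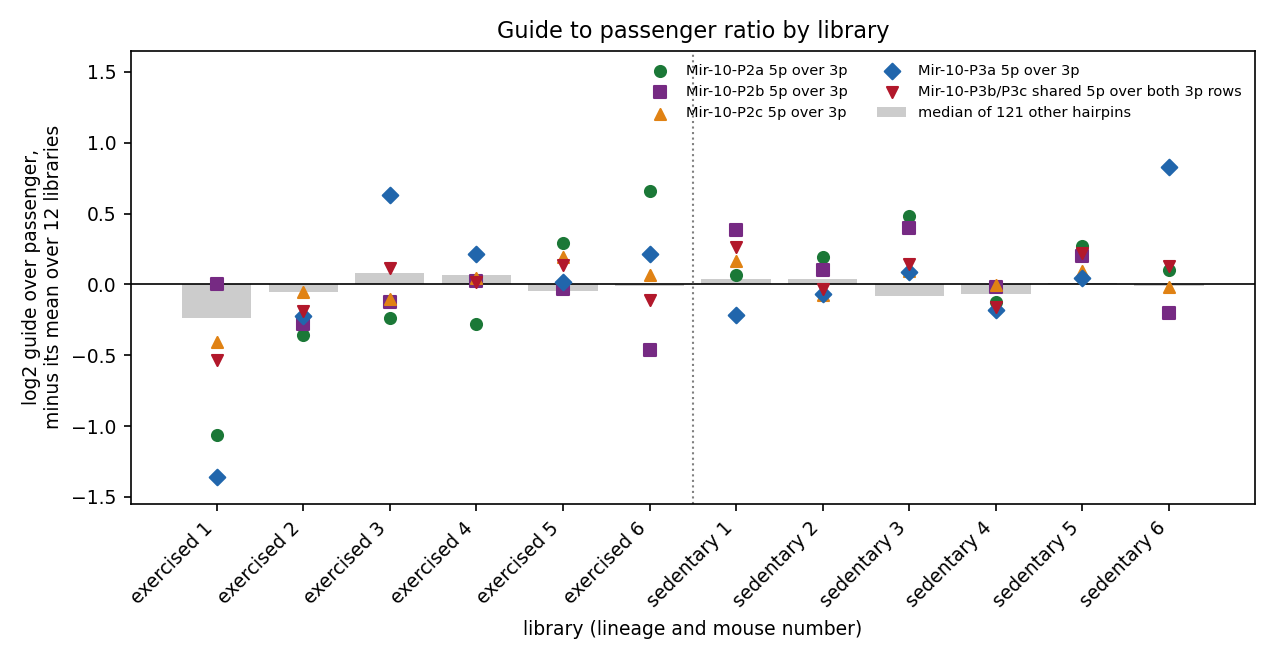
Log2 guide-to-passenger ratio in each of the 12 libraries, minus its mean over the libraries, with the 6 exercised-lineage libraries left of the 6 sedentary-lineage libraries. Coloured symbols stand for Mir-10-P2a, P2b, P2c, P3a and the shared miR-125b guide over both passengers, and grey bars for the median of the 121 other hairpins. Exercised mouse 1 is the lowest point for each symbol but Mir-10-P2b, and its grey bar lies at -0.24.

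Within the exercised lineage, the R31 and R41 libraries did not overlap for 2 of 11 members, beside 17.1% of the 474 rows tested, a share near that of the members. Mir-10-P2a_5p was 116753 to 156185 in the R31 libraries and 163663 to 182201 in the R41 libraries, and Mir-10-P3c_3p* was higher in R31, with means of 7290 in R31 and 6342 in R41. The S11 and S41 libraries overlapped for all 11 members and did not overlap for 5.27% of the rows tested. Without the R31 libraries the fold of Mir-10-P2a_5p was 0.02.

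The rows most like each guide in their course over the 12 libraries were found as the smallest root mean square difference of centred log2 values among the tested rows, 3 for each guide. For the miR-125b guide row these were Let-7-P4_5p (0.09), Mir-154-P17_3p (0.09) and the shared Mir-26 5p row (0.10), against a median of 0.30 over all rows. For the miR-125a guide, Let-7-P12_5p was nearest (0.12), for Mir-10-P2b_5p it was Mir-154-P5_5p (0.10), for Mir-10-P2a_5p it was Mir-154-P8_5p* (0.11) and for Mir-10-P2c_5p it was Mir-340_3p* (0.11). Of the 15 neighbours named this way, 0 were other members, where members made up 11 of the 474 rows tested. With so few member rows, this count cannot show whether the members run together. All rows share library and depth.

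The other branch of the family, Mir-10-P1, is made from Hox gene clusters and was scarce here. Its guide row Mir-10-P1a averaged 301.5 ± 261 normalized counts in exercised-lineage mice and 328 ± 83.1 in sedentary-lineage mice, and Mir-10-P1b averaged 182 ± 132 in exercised-lineage mice and 196 ± 43.2 in sedentary-lineage mice (SD, n = 6 each). Both varied far more within the exercised lineage than the guides of Mir-99, Mir-100 and Mir-125 did. Their folds were -0.46 and -0.53 (SE 0.42 and 0.53, limma adjusted p = 0.669 and 0.685). Single libraries moved them: with each left out in turn, Mir-10-P1a had folds of -0.81 (without exercised mouse 4) to -0.20 (without exercised mouse 1) and Mir-10-P1b of -0.85 (without exercised mouse 4) to -0.035 (without exercised mouse 2).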

How the data were processed

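Per the labels' protocols, an miRNeasy kit yielded the hippocampal RNA and a NEBNext small RNA kit the libraries; the protocols name no molecular identifiers, so PCR copies count as reads and counting errors cover counting alone. What was deposited is a signal, the reads of each arm after division by a size factor of its library. Bowtie 1.3.0, mm10 and DESeq2 were used, per the submitters' processing notes. Trimming, mismatches and the handling of reads with several loci: not given in the sources used here. Arms with identical sequence share a row, and paralogues that differ by 1 base, such as miR-99a-5p and miR-100-5p, may exchange reads. All values are whole multiples, within 0.01, of 1 step per library, taken as 1 read for depth; the smallest value stood for 2 to 6 steps, so no count model was fitted.

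Lineages were compared in R 4.3.3 with limma 3.58.1 (trended empirical Bayes) on log2(value + 1), for the 474 of 513 rows with a mean of at least 10, and called at a Benjamini-Hochberg adjusted p below 0.05. This scale understates folds of low values. The 5p to 3p ratio was tested likewise over 139 paralogues. Groups came from the sample titles. The scripts were tested on simulated data. Alternatives covered scaling, pseudocount, filter, a replicate block, code sets and each library left out. All members were named. The members, the marker lists and the tests were chosen with earlier results of these data known. Loci come from GENCODE M21 on mm10 and sequences from RefSeq.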

Additional observations from a re-analysis of the deposited data

Results flagged for a closer look

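In 64 groups of 6 libraries, the lowest or highest value was compared with its nearest neighbour, and 9 stood apart from the rest of their lineage; chance alone sets apart about 1 in 20 groups, and several of the 9 describe the same reads. Sedentary mouse 3 was high in the share of all counts held by all members (8.98%), by the 5p members (8.88%) and by the Mir-10-P2 guides (7.99%), and in the log2 ratio of the Mir-10-P2 to the Mir-10-P3 guide pool (3.17). Exercised mouse 1 was low in the share of Mir-10-P2c_5p in the Mir-10-P2 pool (8.26%) and in the share of the miR-125a guide in the Mir-10-P3 pool (7.33%), which puts the miR-125b guide at 92.7% of that pool. Sedentary mouse 1 was high in the share of Mir-10-P2b_5p in its pool (66.5%). Sedentary mouse 6 was high in the log2 ratio of 5p to 3p for miR-125a (7.28).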

How the results depend on the processing

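Under every alternative that was run, 0 rows and 0 paralogues were called. The count models planned on whole reads were not run, because the smallest value of a library was not 1 step. Directions near 0 turned. Without the R31 libraries the fold was -0.042 for Mir-10-P2a_3p*, 0.018 for Mir-10-P2a_5p and 0.24 for Mir-10-P1b, and the 5p to 3p difference was 0.059 for Mir-10-P2a, 0.058 for Mir-10-P2c and 0.067 for Mir-10-P3a. Without R41 the folds were 0.075 for Mir-10-P3a_3p* and 0.051 for Mir-10-P3b_3p*, and without S11 it was 0.0043 for Mir-10-P3a_3p*. With equal totals they were 0.017 for Mir-10-P3a_3p*, 0.053 for Mir-10-P3b_3p* and 0.00063 for the miR-125b guide row, and with upper-quartile scaling 0.014 for Mir-10-P3a_3p* and 0.051 for Mir-10-P3b_3p*. Equal totals moved the median fold of all rows by 0.09, and upper-quartile scaling by 0.08. Apart from that shift the cause was not tested. Leaving out each library in turn, Mir-10-P3a_3p* had folds of -0.19 to 0.019, the 5p to 3p difference of Mir-10-P3a ran from -0.31 to 0.089, and the members' share difference ran from -0.56 to -0.26 percentage points (main value -0.43). Mouse numbers did not pair the lineages (correlations of -0.17 to 0.15, 1 of 6 over 0.1), and with the replicate block 0 rows were called, 16 stood at an unadjusted p below 0.05, and the fold of Mir-10-P2c_5p was -0.26. Depth limits the passengers Mir-10-P2a_3p* and Mir-10-P2b_3p*, with at most 91 reads a library.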
